A study of Cricetiscus sungorus with 41 samples.

Results

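T cells were followed in the blood of Djungarian hamsters through 32 genes, all of which are listed in the deposited count table of 20220 gene symbols, 14418 of them with a count. The genes were chosen by symbol for their known roles in T cells and cover the T cell receptor with its CD3 chains (7 genes), the coreceptors (3), adhesion and costimulatory receptors (8), signalling proteins near the receptor (9), transcription factors (3) and receptors of survival and activation (2). A T cell recognises a peptide held by an MHC molecule through its receptor, whose variable chains carry the TRAC and TRBC constant regions, while the CD3 chains and CD247 pass the signal into the cell. The kinases LCK and ZAP70 and the adaptor LAT relay it, CD4 marks helper cells, CD8A and CD8B mark cytotoxic cells, and CD28, ICOS and CD27 add costimulation. In heterothermic mammals, circulating lymphocytes are known to become fewer during torpor and to return on rewarming.

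Animals of 3 kinds were compared, all of them wild type and aged 32 ± 4 weeks. HT hamsters were in a bout of daily torpor, a drop of body temperature below 32 °C for at least 30 minutes, and were sampled at torpor entry (ZT01, n = 5), mid torpor (ZT04, n = 5), arousal (ZT07, n = 4) or after torpor (ZT16, n = 4). NT hamsters had expressed torpor before but were normothermic on the sampling day (n = 6 at ZT01 and n = 4 at each other time), and both kinds were acclimated to a short photoperiod. Control hamsters (n = 5) never performed torpor, and their labels give neither time nor sex. Each library is the blood of a single animal killed at sampling, so that no animal was followed over time.

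Libraries held 50153600 to 71662267 counts, of which haemoglobin genes took 73.7 to 93.8%, leaving 3291472 to 14562786 counts for all other genes. Levels are given as CPM, counts per 1e+06 of the TMM-scaled library size, which aligns the bulk of genes between libraries. Control replicate 5 stood apart with the lowest haemoglobin share and a TMM factor of 3.73 (0.355 to 3.73 over all 41 libraries). The labelled sexes were unequal, with 4 females in HT and 4 males in NT at ZT16, where sex and torpor cannot be told apart, and with males only in NT at ZT04. UTY counts of 2 of the 4 HT libraries at ZT07 went against their labelled sex.

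Of the 32 genes, 31 had at least 8 counts in every library and CD8B, which had 521 counts over all libraries, was at 0 in 2 of them. TRBC1, TRAC and CD3E, which define the lineage, had counts of 650 to 5409, 643 to 3896 and 521 to 3297, so that T cell RNA was present throughout. Symbols come from best matches of assembled contigs to human proteins, so the near-identical constant chains TRBC1 and TRBC2 may share reads and are uncertain. Some of the genes are known from other cells as well, such as GRAP2 in platelets, CD27 on memory B cells and NK cells, and CD5 on a subset of B cells.

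The summed level of the 32 genes overlapped between HT and NT animals at every time. At ZT01 it was 266 to 399 CPM (median 350.0) in HT animals and 279 to 531 CPM (median 398) in NT animals. At ZT04 it was 272 to 501 CPM (median 348) in HT animals and 303 to 433 CPM (median 358) in NT animals. These ranges overlapped, as did those at ZT07 with 289 to 373 CPM in HT and 334 to 452 CPM in NT animals. After torpor, at ZT16, it was 346 to 537 CPM in HT and 271 to 422 CPM in NT animals. As CPM of all counts, haemoglobin included and without TMM, the sum at ZT16 was 425 to 812 in HT animals, above all NT animals with 253 to 376. On this scale the median of all genes tested was also shifted, by 0.59 (log2). Of the 32 genes GRAP2, known from platelets as well, had the most counts, and its 18.8 to 121 CPM (TMM scaled, over all libraries) are part of the sum. In whole blood, fewer T cells and less RNA per T cell cannot be told apart.

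**Figure D1:**
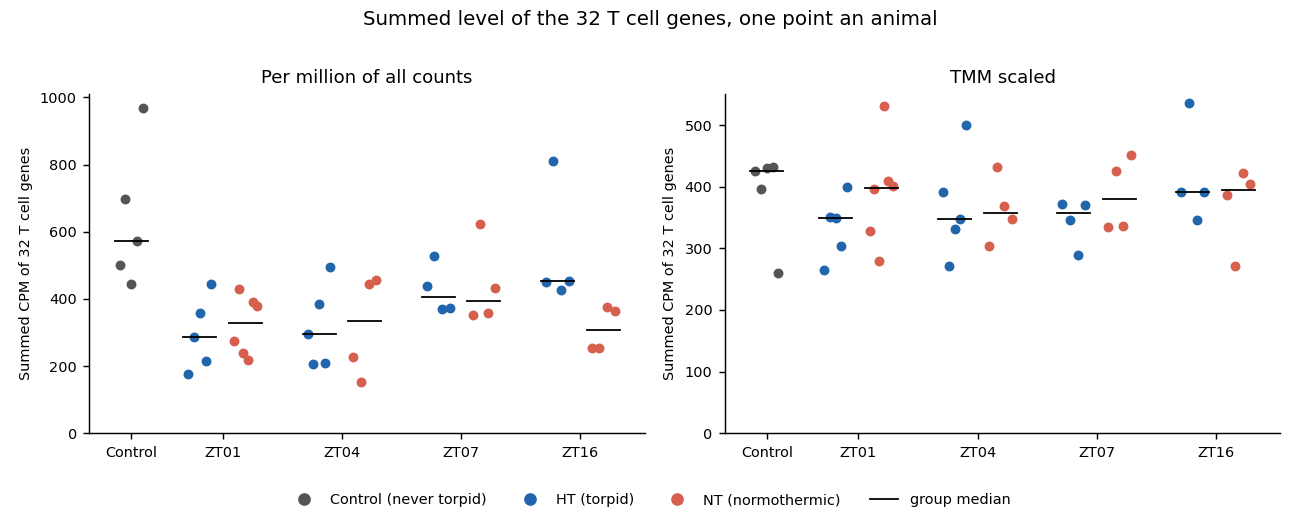
Summed CPM of the 32 T cell genes in each animal, as a share of all counts (left) and after TMM scaling (right), by group on the x axis, with a black line at the median. On the left all 4 HT animals at ZT16 lie above the NT animals of that time and Control replicate 5 is highest at 969 CPM. On the right the groups overlap at every time and Control replicate 5 is lowest at 260 CPM.

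The CD3 chain CD3E did not separate the groups. At mid torpor its level was 27.5, 18.3, 16.5, 15.3 and 40.4 CPM in HT animals and 25.2, 27.9, 23.1 and 22.9 CPM in NT animals. The HT animals lay on both sides of the NT animals and the log2 fold change was -0.08 ± 0.27 (SE). Here and below, the SE is derived from the edgeR test, as the absolute log2 fold change divided by the square root of its F statistic. At ZT01 CD3E was at 13.3, 20.3, 23.0, 21.4 and 27.5 CPM in HT animals and at 14.4 to 34.7 CPM (median 25.5) in NT animals. At ZT07 it was at 30.8, 28.8, 17.4 and 32.8 CPM in HT animals and at 18.5, 27.5, 25.8 and 31.8 CPM in NT animals. At ZT16 it was at 24.2, 37.5, 20.7 and 23.5 CPM in HT animals and at 20.3, 13.8, 29.4 and 27.0 CPM in NT animals. The ranges overlapped at all of these times.

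CD4, the coreceptor of helper T cells, was at 8.68, 7.64, 6.82 and 8.73 CPM in HT animals at ZT07, against 7.49, 12.5, 11.3 and 10.9 CPM in NT animals. One NT animal lay within the HT range and the log2 fold change of -0.42 ± 0.17 did not pass the test (edgeR quasi-likelihood test, adjusted p = 0.140). At ZT04 CD4 was at 9.74, 6.22, 7.79, 5.08 and 13.0 CPM in HT animals and at 5.33, 5.67, 8.05 and 9.40 CPM in NT animals, with a wide overlap. At ZT01 it was at 5.60, 4.62, 9.05, 7.98 and 8.35 CPM in HT animals and at 5.53 to 9.14 CPM (median 7.88) in NT animals. At ZT16 it was at 10.7, 17.1, 7.49 and 10.1 CPM in HT animals and at 10.6, 6.19, 11.1 and 12 CPM in NT animals. The groups overlapped again, with HT replicate 2 highest.

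CD8A, the coreceptor of cytotoxic T cells, was at 6.61, 7.73, 10.3, 9.24 and 14.9 CPM in HT animals at ZT04, against 7.29, 11.3, 16.7 and 6.39 CPM in NT animals. At ZT07 it was at 6.92, 12.7, 5.34 and 10.6 CPM in HT animals and at 10.7, 16.4, 5.74 and 14.5 CPM in NT animals. The groups overlapped at both times. At ZT01 CD8A was at 10.4, 12.3, 7.48, 5.92 and 13.5 CPM in HT animals and at 5.12 to 13.7 CPM (median 11.9) in NT animals. At ZT16 it was at 10.6, 9.16, 16.2 and 14.1 CPM in HT animals and at 16.9, 11, 12.6 and 7.35 CPM in NT animals. Counts of CD4 per count of CD8A in the same library were 0.549 to 1.47 in HT and 0.481 to 1.47 in NT animals at ZT04, and 0.603 to 1.28 in HT and 0.702 to 1.97 in NT animals at ZT07, so the balance of the coreceptors overlapped as well.

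CD69, an early activation receptor that also holds lymphocytes in tissue, was at 3.20, 4.36, 2.61, 2.20 and 4.57 CPM in HT animals at ZT04, against 5.20, 5.62, 4.26 and 5.92 CPM in NT animals. Only the lowest NT animal reached into the HT range, and the log2 fold change was -0.64 ± 0.22 (adjusted p = 0.198, edgeR). At ZT01 CD69 was at 2.61, 2.5, 4.68, 2.97 and 4.94 CPM in HT animals and at 2.11 to 6.05 CPM (median 3.66) in NT animals. At ZT07 it was at 3.44, 2.59, 5.37 and 7.08 CPM in HT animals and at 4.45, 5.66, 6.35 and 4.36 CPM in NT animals, and at ZT16 at 6.00, 7.74, 4.84 and 3.50 CPM in HT animals and 6.28, 6.29, 5.72 and 5.30 CPM in NT animals. At these 3 times the groups overlapped.

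**Figure D2:**
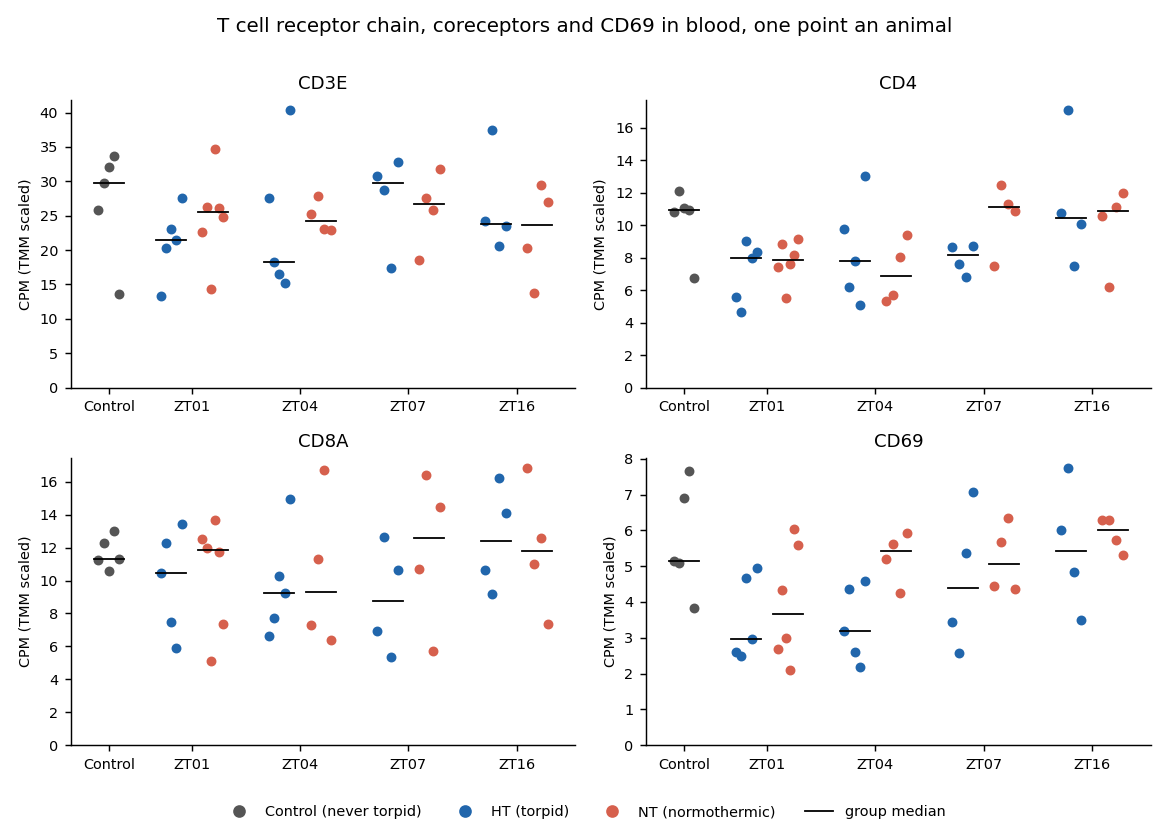
Level of CD3E, CD4, CD8A and CD69 in each animal (y axis, CPM after TMM scaling) by group, with a black line at the median. HT and NT points overlap at every time in all 4 panels; for CD69 at ZT04 the HT animals lie at 2.20 to 4.57 CPM and the NT animals at 4.26 to 5.92 CPM.

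At arousal (ZT07) THEMIS and IL7R were the 2 of 32 T cell genes past the test between HT and NT animals, both lower in HT, where 10.4% of all 10787 genes tested passed (4.65% as lower). THEMIS, an adaptor that tunes receptor signalling in developing T cells, was at 2.3, 1.95, 2.14 and 2.26 CPM in HT animals and at 2.32, 4.35, 3.96 and 3.37 CPM in NT animals. The groups did not overlap, although NT replicate 1 was close to the HT animals, and the log2 fold change was -0.72 ± 0.20 (adjusted p = 0.0413, edgeR). IL7R, the interleukin 7 receptor on which resting T cells depend for survival, was at 7.49, 6.33, 7.94 and 6.33 CPM in HT animals and at 7.85, 19.6, 12.1 and 11.4 CPM in NT animals. NT replicate 1 lay just inside the HT range, and the log2 fold change was -0.88 ± 0.24 (adjusted p = 0.0416, edgeR).

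Among the other costimulatory and signalling genes at ZT07, several fold changes came close to the threshold. CD27 was at 7.91, 8.45, 5.92 and 5.52 CPM in HT animals and at 8.55, 13.8, 8.83 and 13.3 CPM in NT animals (log2 fold change -0.70 ± 0.21, adjusted p = 0.0517). ICOS was at 1.36, 0.974, 1.4 and 0.954 CPM in HT animals and at 1.44, 1.80, 1.94 and 1.74 CPM in NT animals (-0.58 ± 0.21, adjusted p = 0.0997). All HT animals were below all NT animals for both genes. SIT1, a transmembrane adaptor that dampens receptor signalling, was at 0.678, 1.07, 0.476 and 0.891 CPM in HT animals and at 0.867, 1.67, 1.44 and 2.02 CPM in NT animals (-0.96 ± 0.31, adjusted p = 0.0700). CD5, an inhibitory coreceptor of the T cell receptor, had the opposite sign, with 19.2, 13.8, 11.6 and 15.9 CPM in HT animals and 8.89, 10.6, 9.15 and 11.3 CPM in NT animals (0.58 ± 0.18, adjusted p = 0.0555). All HT animals were above all NT animals.

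Groups that did not overlap at ZT07 were seen for 4 of the 32 genes (CD5 higher, CD27, ICOS and THEMIS lower in HT), beside 19.1% of all genes tested. Over the whole list, 25 genes were fitted lower (53.1% of all genes) and 7 higher in HT, 8 and 4 of them at an unadjusted p under 0.05 (27.6% of all genes), with a median log2 fold change of -0.24 against -0.04 over all genes tested. By role, the medians were -0.20 for the receptor and CD3 chains, -0.15 for adhesion and costimulatory receptors, -0.35 for the signalling proteins, -0.08 for the transcription factors, -0.42 for the 3 coreceptors and -0.53 for the 2 receptors of survival and activation. Of the NK and cytotoxic markers, 2 of 12 tested passed as lower in HT at ZT07 (4.65% of all genes), with a median of -0.49 over the 12 and summed levels that overlapped, at 48.8 to 87.1 CPM in HT and 50.7 to 123 CPM in NT animals. GNLY and KLRF1 of these 14 markers had no counts in any library, and the part of NK cells in the result was not tested. With a fit by DESeq2, 6 of the 32 T cell genes passed (CD27, IL7R, SIT1 and THEMIS lower, CD5 and CD8B higher in HT), beside 1662 of all 10787 genes tested. In edgeR no member passed with labelled sex as a covariate (900 of 10787 genes did) or with the replicate number as a block (970). The same held with counts scaled to the library total (310) and without both HT libraries whose UTY counts went against their labels (37 of 11108). With a single animal left out, 411 to 968 of all genes tested passed. No member passed without HT replicate 1, 2 or 4 or NT replicate 2 or 3. CD5 and CD8B passed without HT replicate 3, IL7R alone without NT replicate 4, and CD27, IL7R, SIT1 and THEMIS without NT replicate 1. Scaled to genes of all white blood cells, CD5, CD8B and TRBC1 passed as higher and none as lower, beside 1571 of all 10787 genes tested. With all 41 libraries in the fit CD27 alone passed, as lower in HT, beside 1433 of 11636 genes, and neither THEMIS nor IL7R did.

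**Figure D3:**
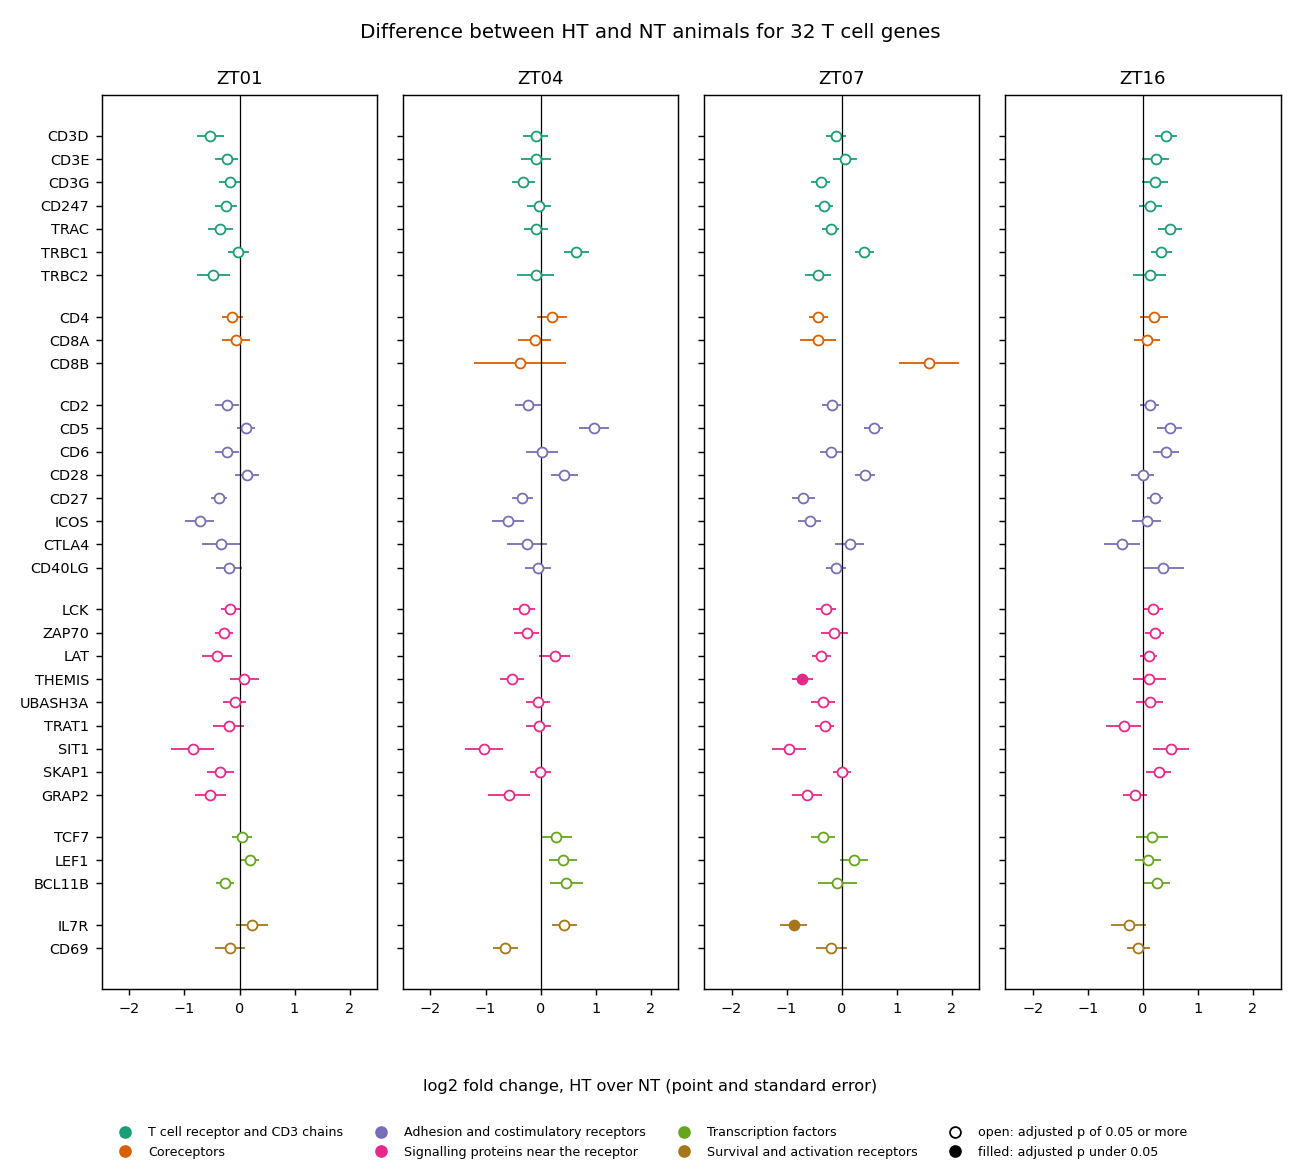
Log2 fold change of HT over NT (x axis, point and standard error) for the T cell genes by role (rows) at the 4 times, with filled points past an adjusted p of 0.05. THEMIS (-0.72) and IL7R (-0.88) at ZT07 are the filled points, CD5 is right of 0 at all 4 times and SIT1 is left of 0 at ZT01, ZT04 and ZT07; CD8B was not tested at ZT01 and ZT16.

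None of the genes that follow passed the test between HT and NT animals at any time. Among the receptor chains, the medians over all 41 libraries were 11.4 CPM for CD3D (5.61 to 22.2), 11.3 CPM for CD3G (6.19 to 17.2) and 16.4 CPM for CD247 (9.03 to 28.1), and TRBC2 was at 0.979 to 5.73 CPM. At ZT07 the log2 fold change was -0.38 ± 0.17 for CD3G and -0.43 ± 0.24 for TRBC2. CD8B, the partner of CD8A, had 26, 38, 8 and 30 counts in HT animals at ZT07 and 4, 10, 6 and 10 counts in NT animals, with HT replicate 3 inside the NT range (1.58 ± 0.54, adjusted p = 0.0831, edgeR).

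Of the adhesion and costimulatory receptors, CD2, which binds cells that present antigen, was at 4.19 to 11.7 CPM over all libraries and CD6, a relative of CD5, at 6.01 to 20.3 CPM. CD28, the main costimulatory receptor, was at 3.37 to 11.5 CPM and had fold changes (log2) of 0.43 ± 0.25 at ZT04 and 0.42 ± 0.18 at ZT07, neither past the test. CTLA4, its inhibitory counterpart, was at 0.362 to 2.29 CPM and CD40LG, the helper signal to B cells, at 1.44 to 6.04 CPM. At ZT04 their log2 fold changes were -0.25 ± 0.37 and -0.05 ± 0.24.

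Of the signalling proteins, the kinases LCK and ZAP70 were at 12.9 to 29.4 CPM and 4.92 to 13.4 CPM over all libraries, and the adaptor LAT was at 7.1 to 29.7 CPM. Their log2 fold changes at ZT07 were -0.28 ± 0.18, -0.13 ± 0.24 and -0.37 ± 0.17. UBASH3A, which restrains ZAP70, TRAT1, which stabilises the receptor, and the adaptor SKAP1 had log2 fold changes of -0.35 ± 0.22, -0.31 ± 0.17 and -0.00041 ± 0.16 at that time. GRAP2 had a median of 43.3 CPM (18.8 to 121) and log2 fold changes of -0.57 ± 0.37 at ZT04 and -0.63 ± 0.27 at ZT07. The transcription factors TCF7, LEF1 and BCL11B, the last of which keeps T cell identity, were at 13.9 to 42.2, 3.19 to 13.4 and 2.40 to 10.6 CPM, and none passed.

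At mid torpor (ZT04) none of the 32 T cell genes passed the test (edgeR), beside 0.447% of 10505 genes. At an unadjusted p under 0.05 there were 2 higher and 3 lower in HT animals, beside 15.2% of all genes. With DESeq2 1 gene of the list (CD5) passed, beside 487 of all 10505 genes. CD5 was at 18.8, 13.1, 17.7, 13.8 and 27.9 CPM in HT animals and at 5.60, 12.7, 8.54 and 10.6 CPM in NT animals. Every HT animal was above every NT animal, the groups of 7.37% of all genes tested being apart in either direction, and the log2 fold change was 0.96 ± 0.27 (adjusted p = 0.121). TRBC1, a constant chain of the receptor, was at 49.9, 33.4, 46.6, 43.1 and 70.5 CPM in HT animals and at 23.7, 34.8, 33.8 and 31.0 CPM in NT animals. Only HT replicate 2 lay within the NT range, and the log2 fold change was 0.65 ± 0.23 (adjusted p = 0.195). When all 41 libraries shared one estimate of the spread, CD5 and TRBC1 passed, beside 675 of 11636 genes.

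Lower at mid torpor, without passing, was SIT1 with 0.920, 0.543, 0.463, 0.542 and 0.897 CPM in HT animals and 0.719, 1.93, 1.17 and 1.76 CPM in NT animals (log2 fold change -1.03 ± 0.35, adjusted p = 0.174). NT replicate 1 lay among the HT animals. THEMIS was at 3.61, 2.08, 2.09, 2.02 and 2.64 CPM in HT animals and at 3.28, 2.73, 3.74 and 4.27 CPM in NT animals. IL7R was at 13.1, 10.2, 12, 10.1 and 13.5 CPM in HT animals and at 13.3, 5.99, 7.06 and 8.19 CPM in NT animals, and LEF1, a transcription factor of naive T cells, had a log2 fold change of 0.41 ± 0.25. The whole list had a median of -0.08 against -0.01 for all genes tested, with 22 genes fitted lower (50.7% of all genes) and 10 higher, and the 3 transcription factors had a median of 0.41.

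At torpor entry (ZT01) none of 31 T cell genes passed in edgeR, as for all 10509 genes tested (0.00%). DESeq2 called none of the 31 either, beside 12 of all 10509 genes. The 4 genes with an unadjusted p under 0.05 were all lower in HT, beside 3.81% of all genes (7.69% in either direction), and were ICOS (log2 fold change -0.72 ± 0.26), CD27 (-0.38 ± 0.14), SIT1 (-0.85 ± 0.39) and CD3D (-0.53 ± 0.25), with adjusted p of 0.642 to 0.647. THEMIS was at 2.76, 2.21, 2.44, 3.76 and 5.26 CPM in HT animals and at 1.81 to 4.54 CPM (median 3.09) in NT animals. IL7R was at 9.06, 5.19, 7.71, 8.62 and 11.7 CPM in HT animals and at 3.02 to 13.8 CPM (median 6.32) in NT animals. The ranges overlapped for both. The median of the list was -0.23 against -0.01 over all genes, with 25 genes fitted lower (51.7% of all genes) and 6 higher.

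After torpor (ZT16) none of 31 T cell genes passed in edgeR or DESeq2, beside 0.0187% of 10705 genes in edgeR and 100 in DESeq2. Only TRAC had an unadjusted p under 0.05 (edgeR), beside 7.18% of all genes. THEMIS was at 4.23, 6.55, 2.77 and 3.06 CPM in HT animals and at 4.65, 1.98, 4.54 and 4.26 CPM in NT animals. IL7R was at 7.70, 19.7, 9.90 and 10.03 CPM in HT animals and at 8.44, 10.1, 18.8 and 19.5 CPM in NT animals. The ranges overlapped for both. The list had 25 genes fitted higher and 6 lower in HT (48.2% of all genes lower), with a median of 0.17 against 0.01 for all genes. With counts scaled to the library total, 22 genes passed as higher, beside 3289 of all 10705 genes in either direction. In that fit the median of all genes was itself at 0.59.

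Of the 31 genes tested at every time, 18 (58.1%) were fitted lower in HT at all of ZT01, ZT04 and ZT07, beside 25.9% of 10247 genes, and 3 (9.68%) were fitted higher at all 3, beside 22.4%. CD5 and LEF1 were fitted higher at all 4 times (2 of 31, 6.45%, beside 11.7% of all genes), and TRAT1, GRAP2 and CD69 lower (3 of 31, 9.68%, beside 12.4%). No gene of the list differed in its HT-NT difference between ZT04 and any other time by the interaction test in edgeR or DESeq2. Against ZT01, ZT07 and ZT16, edgeR called 0.00%, 0.00% and 0.331% of 11471 genes and DESeq2 called 8, 3 and 151. At an unadjusted p under 0.05 there were 2 genes against ZT01, 1 against ZT07 and 2 against ZT16 (7.51%, 6.63% and 11.8% of all genes), with the lowest p for CD5 (difference 0.84 ± 0.31), IL7R (1.32 ± 0.47) and SIT1 (-1.53 ± 0.55).

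Across the bout, CD27 was the T cell gene with the lowest p in HT animals. Of 32 genes, 4 passed the test over the 4 times (CD27 with adjusted p = 0.0027, ICOS 0.0395, SIT1 0.0413 and CD5 0.0437, edgeR), beside 9.85% of 11130 genes. CD27 alone passed with labelled sex as a covariate (beside 857 of 11130 genes), and ICOS no longer passed with counts scaled to the white blood cell genes (1480). In the 18 fits that left out a single animal, 699 to 1260 of all genes passed. Of the 32 T cell genes, CD27 passed in all 18, ICOS in 10, SIT1 in 6 and CD5 in 4. CD27 alone was called without HT ZT07 replicate 1 or 4 or HT ZT16 replicate 1 or 3, and 2 genes were called without HT ZT01 replicate 1, 2, 3 or 4, HT ZT04 replicate 3, HT ZT07 replicate 2 or HT ZT16 replicate 2 or 4. CD27 in HT animals was at 8.06 to 9.35 CPM at ZT01, 7.01 to 9.92 CPM at ZT04, 5.52 to 8.45 CPM at ZT07 and 11.4 to 14.2 CPM at ZT16. All animals at ZT16 were above all HT animals of the other times, while in NT animals CD27 ranged from 6.93 to 14.3 CPM with overlap among the times. ICOS in HT animals had medians of 1.39, 1.24, 1.17 and 2.5 CPM at ZT01, ZT04, ZT07 and ZT16, and SIT1 0.728, 0.543, 0.784 and 1.61 CPM. CD5 ran the other way, with medians of 9.66, 17.7, 14.8 and 11.5 CPM.

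From arousal to after torpor, 5 of the 32 genes rose in HT animals and none fell, beside 13.6% of all genes tested (6.71% as higher). These were CD27 (log2 fold change of ZT16 over ZT07 0.87 ± 0.14, adjusted p = 7.43e-04), ICOS (1.07 ± 0.30, 0.0243), THEMIS (0.96 ± 0.29, 0.0296), IL7R (0.77 ± 0.25, 0.0437) and SIT1 (1.11 ± 0.36, 0.0457), all by edgeR. The median of the list was 0.37 against 0.03 over all genes, and that of the transcription factors -0.13. NK and cytotoxic markers moved with it, with 5 of 12 higher, a median of 0.91 and a summed level of 74.5 to 186 CPM at ZT16 and 48.8 to 87.1 CPM at ZT07, and their part in the result was not tested. All HT animals at ZT16 were labelled female, and with labelled sex as a covariate CD27, ICOS and THEMIS passed, beside 1276 of 11130 genes. UTY counts of HT ZT07 replicates 1 and 2 went against their labels, and no fit of this comparison left out both. With counts scaled to the library total none of the 5 passed (314 of 11130 genes did), and scaled to the white blood cell genes CD27 and ICOS did (1709). The 18 fits that left out a single animal called 876 to 1604 of all genes. CD27 passed in each of them and ICOS in 14, THEMIS in 12, IL7R in 8 and SIT1 in 7. Of the 32 genes, 1 (CD27) was called without HT ZT07 replicate 2 or 4 or HT ZT16 replicate 2. Without HT ZT07 replicate 1 or 3 or HT ZT16 replicate 1 there were 2. Without HT ZT01 replicate 1, 3 or 4 or HT ZT16 replicate 4 there were 3. No gene passed between ZT01 and ZT04 or between ZT04 and ZT07 in HT animals (edgeR, 0.00% of genes in both, with an unadjusted p under 0.05 for 3 and 2 of them and for 11.3% and 10.5% of genes). DESeq2 called 1 (CD5) and 0, beside 137 and 59 of 11130 genes.

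In NT animals 0 of 32 genes were called over the 4 times in edgeR or DESeq2, beside 0.00% of 11111 genes in edgeR and 6 in DESeq2. IL7R and CD4 had an unadjusted p under 0.05, beside 4.03% of genes, and TCF7, a transcription factor of naive and memory T cells, came next. CD4 in NT animals had medians of 7.88, 6.86, 11.1 and 10.9 CPM at ZT01, ZT04, ZT07 and ZT16, and IL7R 6.32, 7.63, 11.7 and 14.5 CPM, with overlapping ranges.

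**Figure D4:**
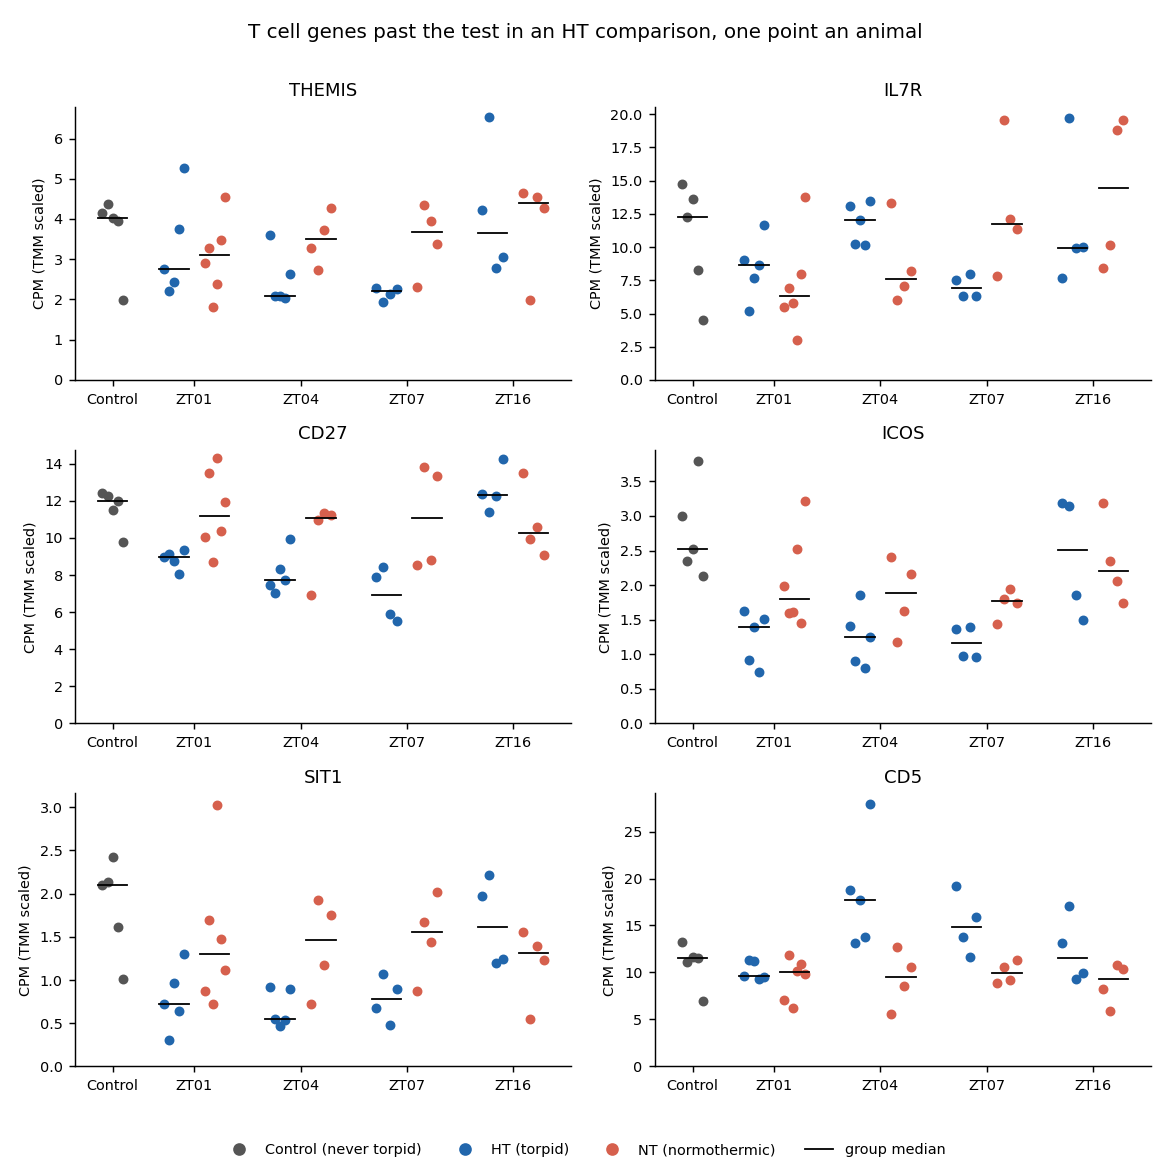
Level of the 6 T cell genes past the test in a comparison of HT animals (y axis, CPM after TMM scaling) in each animal by group, with a black line at the median. CD27 is at 5.52 to 8.45 CPM in HT animals at ZT07 against 8.55 to 13.8 CPM in NT animals, and at 11.4 to 14.2 CPM in HT animals at ZT16.

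Ratios within a library do not depend on the scaling, and those shown here were chosen after the values were seen and were not tested. Counts of CD5 per count of CD27 were 2.52, 1.87, 2.13, 1.78 and 2.82 in HT animals at ZT04, against 0.808, 1.16, 0.754 and 0.942 in NT animals. At ZT07 they were 2.43, 1.63, 1.96 and 2.88 in HT animals and 1.04, 0.768, 1.04 and 0.847 in NT animals. The groups did not overlap at either time. At ZT07 this follows from the levels of the genes themselves, as CD5 was higher and CD27 lower in all HT animals than in all NT animals. At ZT01 the ratio was 1.02 to 1.28 in HT and 0.699 to 1.05 in NT animals, and at ZT16 0.699 to 1.49 in HT and 0.599 to 1.14 in NT animals, with overlap at both times. Counts of TRBC1 per count of TRAC were 1.74 to 2.04 in HT and 0.962 to 1.35 in NT animals at ZT04, and 1.76 to 2.07 in HT and 1.02 to 1.55 in NT animals at ZT07. The groups were apart at both times, and at ZT16 the ratio was 1.14 to 1.46 in HT and 1.31 to 1.5 in NT animals. Counts of CD3E per count of PTPRC, which is not on the list, overlapped. They were 0.216 to 0.653 in HT and 0.359 to 0.839 in NT animals at ZT04, and 0.237 to 0.622 in HT and 0.343 to 0.581 in NT animals at ZT07.

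**Figure D5:**
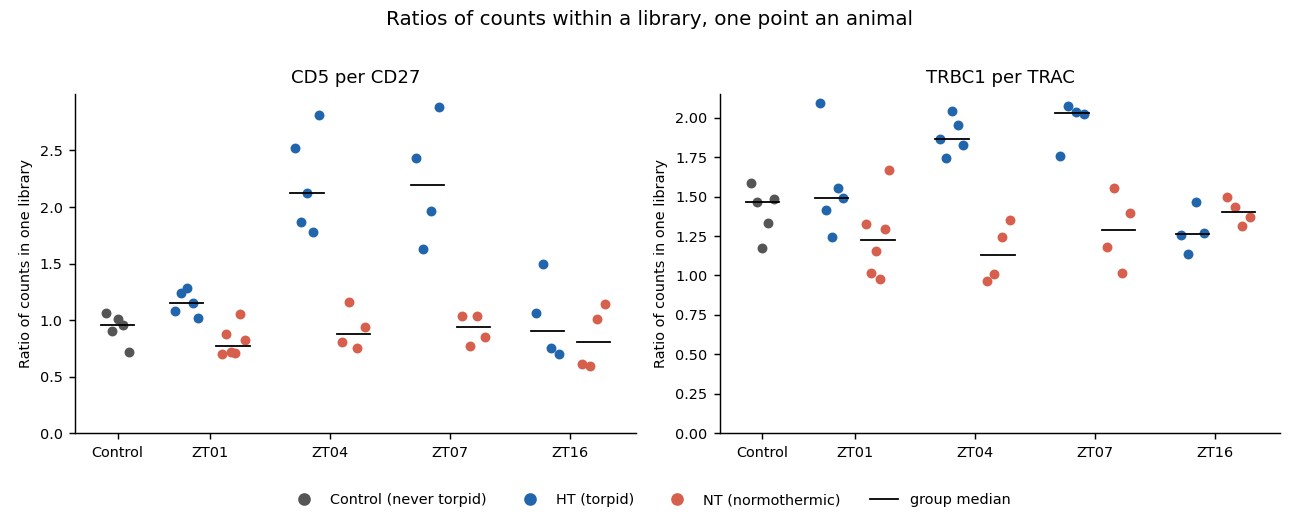
Counts of CD5 per count of CD27 (left) and of TRBC1 per count of TRAC (right) in each library (y axis, ratio) by group, with a black line at the median. In both panels HT animals lie above NT animals at ZT04 and ZT07 without overlap, and overlap with them at ZT01 and ZT16. For CD5 per CD27 at ZT07 this follows from the separation of both genes.

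Control animals were set against the mean of the 4 NT groups. None of the 32 T cell genes passed in edgeR or DESeq2, beside 2.00% of 11369 genes in edgeR and 308 in DESeq2. ICOS (log2 fold change 0.47 ± 0.17) and CD247, the zeta chain of the receptor (0.29 ± 0.13), had an unadjusted p under 0.05, beside 9.34% of all genes, and GRAP2, an adaptor of the receptor pathway, came next (-0.46 ± 0.25). On the whole list 25 genes were fitted higher and 7 lower in Control (46.5% of all genes lower), with a median of 0.12 against 0.02 over all genes. ICOS was at 3.0, 2.35, 2.52, 3.80 and 2.14 CPM in Control animals, against a range of 1.18 to 3.21 CPM over all NT animals. Among the genes followed in every animal, CD3E was at 25.8, 29.7, 32.0, 33.7 and 13.7 CPM in Control animals, CD4 at 10.8, 12.1, 11, 11 and 6.74 CPM, and CD8A at 11.2, 12.3, 10.6, 13.0 and 11.3 CPM. CD69 was at 5.14, 5.08, 6.90, 7.66 and 3.84 CPM, IL7R at 14.7, 12.3, 13.6, 8.30 and 4.52 CPM, and THEMIS at 4.15, 4.36, 4.04, 3.95 and 1.98 CPM. On this TMM scale Control replicate 5 was lowest for all of these but CD8A. Without it no gene passed either. Scaled to the library total, 31 of 32 genes passed as higher, beside 8753 of all 11369 genes in either direction. In that fit the median of all genes was at 0.98 and that of the T cell genes at 0.97.

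Other T cell genes were set beside the 32. Of 24 genes of T cell subsets and memory, 2 of 17 tested passed as lower in HT at ZT04 (0.162% of all genes passed as lower) and 5 of 19 at ZT07 (4.65% of all genes), with medians of -1.05 and -0.45. CXCR3, a chemokine receptor of type 1 T cells and NK cells, was at 0.183 to 0.223 CPM in HT and 0.505 to 0.678 CPM in NT animals at ZT07 (log2 fold change -1.54 ± 0.34, adjusted p = 0.0184), and passed at ZT04 as well (0.194 to 0.285 CPM in HT and 0.856 to 1.31 CPM in NT animals, adjusted p = 0.0175). CXCR3 in HT animals at both times lay within the range of CD8B over all libraries (0 to 0.570 CPM), so its counts there were small. TBX21, the factor T-bet, was at 1.13 to 2.74 CPM in HT and 3.05 to 9.22 CPM in NT animals at ZT04 (-1.80 ± 0.31, adjusted p = 0.0269, edgeR). The summed NK and cytotoxic markers at ZT04 were at 54.4 to 104 CPM (median 55.6) in HT and 74.2 to 143 CPM (median 135) in NT animals. The part of NK cells in these calls was not tested. Of 18 other settings at ZT04, CXCR3 passed in 12 (adjusted p up to 0.359) and TBX21 in 9 (up to 0.199). With sex as a covariate, with counts scaled to the library total, and without NT replicate 1, 3 or 4 neither passed, CXCR3 was also lost with the replicate block (adjusted p = 0.106), and TBX21 without HT replicate 1, 2, 3 or 4. CCR7, which guides naive and central memory cells into lymph nodes, was at 10.5 to 21.6 CPM in HT and 21.1 to 37.2 CPM in NT animals at ZT07 (-1.03 ± 0.24, adjusted p = 0.0230), with a small overlap. At ZT07 neither CXCR3 nor CCR7 passed without both HT libraries whose UTY counts went against their labels (adjusted p = 0.164 and 0.186) or without HT replicate 2 or NT replicate 3, nor did CXCR3 with counts scaled to the library total or CCR7 without HT replicate 1 or NT replicate 2. From ZT07 to ZT16 in HT animals 7 of 20 of these genes rose, beside 6.71% of all genes as higher. Of 32 other genes of T cell receptor signalling, MALT1, which links the receptor to NF-kB, passed at ZT07 as higher in HT (12.4 to 16 CPM against 7.94 to 10.2 CPM in NT animals, 0.63 ± 0.15, adjusted p = 0.0243), the median of that list was -0.01, and none passed at ZT01, ZT04 or ZT16. MALT1 no longer passed without both UTY libraries (adjusted p = 0.175), scaled to the library total, or without HT replicate 2 or 3 or NT replicate 2. At those times the lowest p were those of PTPN22 (-0.37 ± 0.16) and PTPN6 (0.36 ± 0.18) at ZT01, PTPN22 (-0.81 ± 0.23) and NFATC3 (-0.41 ± 0.17) at ZT04, and RHOH (0.28 ± 0.14) and CBLB (-0.34 ± 0.20) at ZT16. Of the subset genes none passed at ZT01 and ZT16, where GATA3 (-0.65 ± 0.22), TBX21 (-0.57 ± 0.23), TNFRSF18 (0.38 ± 0.18) and TNFRSF4 (0.73 ± 0.49) had the lowest p.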

How the data were processed

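Blood pellets of 41 hamsters were sequenced. The authors trimmed the reads with Trimmomatic, assembled a transcriptome de novo with Trinity from all samples, named contigs by their best human protein match, aligned reads with HISAT2 and deposited raw counts per gene symbol, with no genome build. Of counts from 1 to 49, 67.4% were even, so small counts may not be separate fragments.

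Counts were tested with edgeR 4.0.16 in R 4.3.3 (TMM, filterByExpr with a minimum count of 10 and total of 15, quasi-likelihood test, Benjamini-Hochberg over all genes tested, threshold 0.05), without covariates. HT was set against NT in a separate fit for each time. Each time course was fitted on all HT or all NT libraries, and Control against NT on the Control and all NT libraries. The interaction was fitted on the 36 HT and NT libraries. HT and NT were unpaired: same-numbered animals correlated at -0.16 to 0.15 after removal of group means. No library pair was a duplicate (lowest chi-square per degree of freedom 9.69 over 820 pairs). Every animal's values (for the 6 NT animals at ZT01, the range and median) were printed for CD3E, CD4, CD8A, CD69, IL7R and members past the test in an HT minus NT comparison; of the other T cell lists up to 3 genes past the test were named with group ranges, and otherwise the lowest p, with 1 gene not reported here; values of CD27, ICOS, SIT1, CD5, TRBC1 and CD8B by animal were added after they were seen. Alternatives were DESeq2 1.42.0, RLE size factors, no filter, haemoglobin genes left out, the replicate block, sex, all 41 libraries, other scalings and each animal left out. Members and lists were chosen with earlier results of these data known. The script was tested on simulated counts. Figures used matplotlib 3.10.9 in Python 3.11.15.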

Additional observations from a re-analysis of the deposited data

Results flagged for a closer look

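Of 144 groups of animals checked, 8 held an animal far from the others of its group, where chance gives about 1 in 20 groups. In Control replicate 5 CD4 was at 6.74 CPM (next lowest 10.8), THEMIS at 1.98 CPM (3.95) and the summed T cell genes at 260 CPM (397), all TMM scaled. As CPM of all counts, without TMM, its sum of 969 was the highest of the 41 libraries. On that scale its CD4 was at 25.1, against 11.4 to 21.3 in the other Control animals. THEMIS was also lowest in NT ZT16 replicate 2, at 1.98 CPM (4.26). CD27 in NT ZT04 replicate 1 was lowest at 6.93 CPM (11). CD247 was highest in HT ZT04 replicate 5 at 23.3 CPM (next 14.0) and in HT ZT16 replicate 2 at 28.1 CPM (18.0). GRAP2 was highest in NT ZT04 replicate 2 at 97.6 CPM (48.9), the library with the fewest counts outside haemoglobin (3291472). The causes were not tested.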

How the results depend on the processing

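The number of T cell genes called between HT and NT at ZT04 was 0, with 1 in DESeq2 (beside 487 of 10505 genes) and 2 with all 41 libraries in the fit (beside 675 of 11636 genes). At ZT07 it was 2, with 6 in DESeq2 (beside 1662 of 10787 genes) and 1 with all 41 libraries in the fit (CD27, not THEMIS or IL7R, beside 1433 of 11636 genes). It was 0 with the replicate number as a block (970 of 10787 genes), with sex as a covariate (900) or scaled to total counts (310). It was also 0 without both HT libraries whose UTY counts went against their labels (37 of 11108 genes). Scaling to total counts gave 22 at ZT16 (beside 3289 of 10705 genes) and 31 for Control over NT (8753 of 11369). It gave 18 over the HT time course (3569 of 11130) and 0 from ZT07 to ZT16 in HT (314 of 11130). From ZT07 to ZT16, 3 passed with sex as a covariate (1276 of 11130 genes) and 2 scaled to the white blood cell genes (1709). Over the HT time course 1 passed with sex (857), and from ZT01 to ZT04 in HT 1 in DESeq2 (137). Both scalings were chosen after the data were seen, and the cause was not tested. Leaving out a single animal gave 0 to 4 calls at ZT07, beside 411 to 968 of all genes. It gave 1 to 5 over the HT time course (699 to 1260 of all genes). From ZT07 to ZT16 it gave 1 to 5 (876 to 1604 of all genes), and elsewhere 0. With the replicate block, 5 passed over the HT time course (beside 1194 of 11130 genes) and 4 from ZT07 to ZT16 (1458). The block changed the count past 1.5 times at ZT07 alone. The sign turned, with a shift over 1 SE of the reported value, for CD8A at ZT04 without NT replicate 3 (0.24; -0.31 to 0.24 over animals left out), CD69 at ZT07 without both UTY libraries (0.24), and at ZT16 for CD4 (-0.073 to 0.35 over animals left out) and THEMIS (-0.19 to 0.27) without HT replicate 2 and CD8A (-0.21) with 36 libraries and sex in the fit. Scaled to total counts it turned for CD69 (0.53), IL7R (0.34) and CBLB (0.26) at ZT16 and for GRAP2 in Control over NT (0.38). Over all values recomputed under another setting, 643 stayed on their side of the threshold, 41 no longer passed, 23 newly passed and 6 turned by over 1 SE. Over those with one animal left out, the numbers were 854, 100, 3 and 3. Of those that stayed on their side, 29 values, none of them past the test, took the other sign within 1 SE, among them TRBC1 (8 of 20 settings), CD8A (4) and THEMIS (2) at ZT01, CD3E at ZT04 and ZT07 (3 of 18 each) and ICOS at ZT16 (3 of 17). Depth limited CD8B most, with 0 to 44 counts per library.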
